A study of Petunia x hybrida with 10 samples.

Results

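Peaks of immunoprecipitated RNA titled N1-methyladenosine (m1A) were set against peaks titled N6-methyladenosine (m6A) in petunia corollas treated with ethylene. The 5 lists compared were every list of the series from ethylene-treated corollas, 3 m1A lists and 2 m6A-titled lists, of 10 lists in all, and they held 19753 of the 62877 peaks deposited. The plant was Petunia x hybrida, cultivar Mitchell, and the tissue was the corolla, which is made up of the petals. Ethylene was applied at 2 µl/l for 16 h. The other 5 lists, 3 m1A and 2 m6A-titled, came from corollas of the same cultivar kept in air for 16 h. Whether the libraries within a group derive from different plants is not stated in the labels, and the p-values below therefore measure only the spread between these libraries, which may be technical. For the m6A-titled libraries the labels' protocol lists an anti-m1A antibody, the same target as for the m1A libraries, so "m6A-titled" stands for the title and not for a checked target.

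Both modifications are methyl groups on adenosine. In m1A the methyl group sits on the face of the base that pairs with its partner strand, and in mammals m1A is best known from transfer RNA. In m6A the methyl group leaves base pairing possible, and the mark is the most abundant internal modification of messenger RNA in plants and animals, where it is often found toward the end of the coding sequence and in the 3′ untranslated region. Ethylene is a gaseous hormone that hastens the senescence of petunia petals.

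The m1A lists held 7526, 1013 and 8059 peaks in libraries 1, 2 and 3, on 974, 417 and 1002 scaffolds. The m6A-titled lists held 1704 and 1451 peaks in libraries 1 and 2, on 666 and 625 scaffolds. The list of m1A library 2 was thus shorter than both m6A-titled lists, and the lists of the other m1A libraries were longer. The peak lists give no read numbers, so depth is unknown, and the intervals below cover counting error only and treat peaks as independent, which neighbouring peaks may not be. The lowest score was 100 to 102 in the m1A lists and 13.04 and 13.09 in the m6A-titled lists, and the lists therefore differ in the lowest score they admit. Whether equal scores mean equal strength in different lists is not known.

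The first comparison was of peak width. Peaks of m1A were narrower than m6A-titled peaks in every library. Median widths were 156, 146 and 162 bp in m1A libraries 1, 2 and 3, against 261 and 271 bp in m6A-titled libraries 1 and 2. The highest m1A median lay below the lowest m6A-titled median. The medians averaged 155 ± 8.08 bp for m1A (SD, n = 3) and 266 ± 7.07 bp for m6A-titled peaks (SD, n = 2), a difference of -111 bp that was larger than the spread within either mark. The two-sided exact permutation p was 0.2, the smallest that 3 libraries against 2 can give with 10 splits, so the design cannot reach 0.05.

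The difference ran through the whole range of widths. The lower quartile was 73 to 81 bp in the m1A lists and 155 bp in both m6A-titled lists. Peaks under 50 bp made up 11.9 to 14.6% of the m1A lists and 2.27 to 2.76% of the m6A-titled lists. At the other end, peaks of 500 bp or more made up 4.48, 0.987 and 5.66% of m1A libraries 1, 2 and 3, against 14.96 and 16.3% of m6A-titled libraries 1 and 2. The widths still overlapped peak by peak, since the upper quartile of the m1A lists was 205 to 265 bp. The widest peak was 2553 bp in the m1A lists, in library 3, and 2889 bp in both m6A-titled lists.

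**Figure D1:**
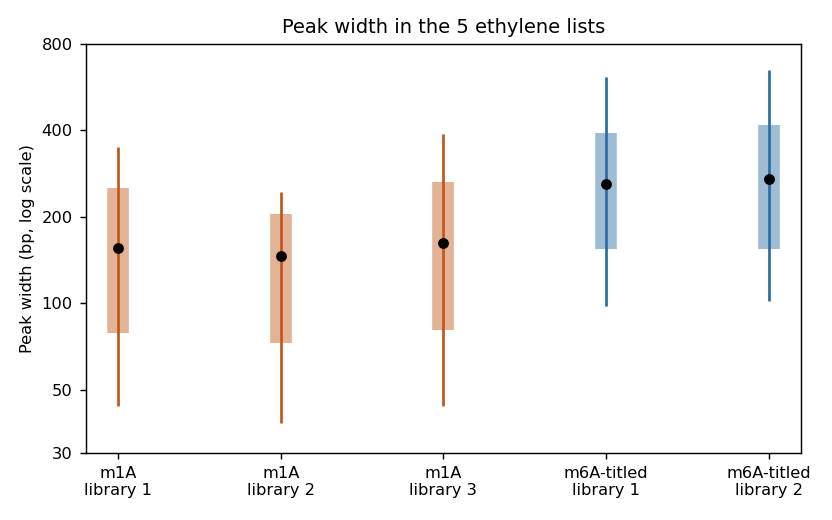
Peak width in bp on a log scale for the 3 m1A and 2 m6A-titled ethylene lists, with the median as a point, the interquartile range as a wide bar and the 10th to 90th percentiles as a thin line. The m1A medians lie between 146 and 162 bp and the m6A-titled medians at 261 and 271 bp.

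Score classes gave the same order, though equal scores are not known to mean equal strength in different lists. Among peaks with scores of 100 to under 1000, median widths were 144, 154 and 156.5 bp in m1A libraries 1, 2 and 3, against 307 and 279 bp in m6A-titled libraries 1 and 2. Among peaks at the most common score of exactly 3100 they were 176, 152 and 179 bp in the m1A libraries, against 296.5 and 304 bp in the m6A-titled libraries. In air the medians averaged 159 ± 1 bp for m1A (SD, n = 3) and 279.5 ± 9.19 bp for m6A-titled peaks (SD, n = 2). The m1A minus m6A-titled contrast was 9.17 bp smaller in size after ethylene than in air, and the two-sided exact permutation p over 120 splits was 0.467.

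The second comparison was of clustering along the scaffolds. Peaks of m1A had close neighbours in their own list more often than m6A-titled peaks did. Another peak of the list lay within 1 kb, edge to edge, for 23.6, 18.1 and 23.5% of the peaks of m1A libraries 1, 2 and 3, against 3.99 and 2.27% in m6A-titled libraries 1 and 2. The marks did not overlap in this share. It averaged 21.7 ± 3.16% for m1A (SD, n = 3) and 3.13 ± 1.21% for m6A-titled peaks (SD, n = 2), a difference of 18.6 percentage points (two-sided exact permutation p = 0.2, the smallest possible).

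The lists differ in length, and its part in this difference was not tested with lists of matched length. The list of m1A library 2, with 1013 peaks the shortest of the 5, had 183 peaks with a neighbour within 1 kb, against 68 and 33 peaks in m6A-titled libraries 1 and 2. Within 500 bp the share was 6.83, 6.52 and 6.59% in m1A libraries 1, 2 and 3, against 0.704 and 0.414% in m6A-titled libraries 1 and 2. Within 5 kb it was 54.4, 32.2 and 57.3% in the m1A libraries, against 13.3 and 10.7% in the m6A-titled libraries.

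**Figure D2:**
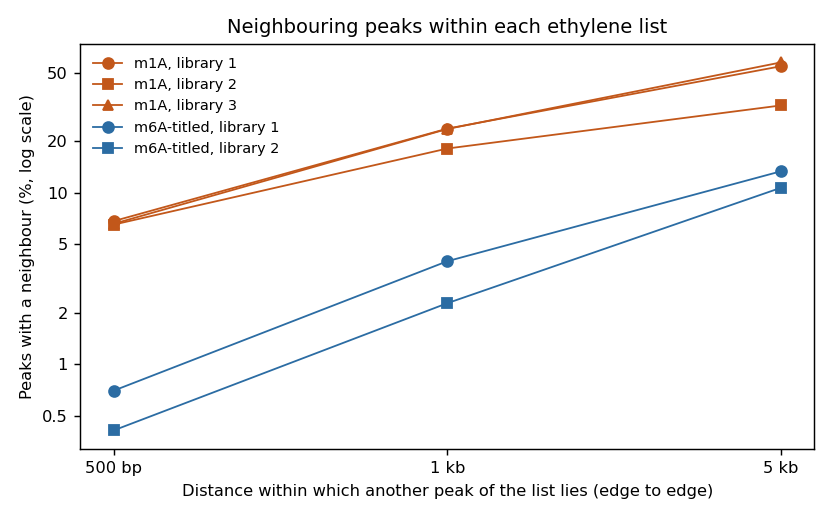
Share of peaks, in percent on a log scale, with another peak of the same list within 500 bp, 1 kb or 5 kb, with 1 line per ethylene list. The 3 m1A lists run from 6.52 to 6.83% at 500 bp to 32.2 to 57.3% at 5 kb and lie above both m6A-titled lists at each distance.

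A ratio of pair densities was also taken, because dropping peaks at random leaves it unchanged on average. It is the number of peak pairs with midpoints under 1 kb apart, per kb of distance, over the number 20 to 100 kb apart, per kb. The ratio was 7.83, 30.9 and 6.81 in m1A libraries 1, 2 and 3, against 5 and 4.05 in m6A-titled libraries 1 and 2. On the log2 scale the means were 3.56 for m1A and 2.17 for m6A-titled lists, a difference of 1.39 (two-sided exact permutation p = 0.2, the smallest possible). The m6A-titled ratios rest on 23 and 13 near pairs, and without m1A library 2, whose ratio rests on 80, the log2 difference was 0.698. The gap between the marks was therefore smaller by this ratio, and its size rests on m1A library 2. The lists are not known to differ by random dropping. Over the m1A lists of both treatments the ratio fell with list length, from 30.9 at 1013 peaks to 7.93 at 6760 and 5.20 at 17573. Peaks of 1 list do not overlap, so midpoints of wider peaks lie farther apart at the same gap. The part of width and list length in the ratio was not tested.

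Peaks of 1 list under 2 kb apart were joined into loci, most of which were single peaks in every list. Loci of 1 peak made up 77.5, 85.4 and 75.9% of the loci in m1A libraries 1, 2 and 3, against 96.1 and 97.3% in m6A-titled libraries 1 and 2. Loci of 4 or more peaks numbered 79, 4 and 82 in the m1A libraries, against 1 in each m6A-titled library.

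The third comparison was of scaffolds. Nearly every scaffold with an m6A-titled peak also held an m1A peak, and the reverse was true of about 2 in 3. Of 765 scaffolds with an m6A-titled peak in either list, 717 (93.7%, exact binomial interval 91.8 to 95.3%) held an m1A peak, and these were 65.8% of the 1090 scaffolds with m1A (62.9 to 68.6%). A further 373 scaffolds held m1A alone and 48 held m6A-titled peaks alone. The shared scaffolds carried 88.0% of the m1A peaks and 97.8% of the m6A-titled peaks.

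Sharing moved with the end of the last peak in any list of the series, taken in place of scaffold size. True scaffold lengths were not used. This end comes in part from the same peaks and can lie farther out where a scaffold holds more of them. The part of peak number in it was not tested. The median end was 871 kb for shared scaffolds, 273 kb for those with m1A alone and 74.2 kb for those with m6A-titled peaks alone. Of scaffolds under 250 kb by this measure, 27.4% held both marks, and of those of 2000 kb or more, 95.8% did. A shared scaffold is a coarse measure. A peak in all 5 lists was found on 263 of 1138 scaffolds (23.1%), a count that cannot exceed the 417 scaffolds of m1A library 2. Peaxi162Scf00016 held the most m1A peaks, 109, 22 and 128 in libraries 1, 2 and 3, beside 13 and 16 m6A-titled peaks in libraries 1 and 2.

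The fourth comparison was of loci, formed by joining peaks of all 5 lists under 2 kb apart. Most m6A-titled loci had no m1A peak, and more than 9 in 10 m1A loci had no m6A-titled peak. Of 10936 loci, 784 held both marks, 8729 held m1A alone and 1423 held m6A-titled peaks alone. The 784 were 35.5% of the 2207 loci with m6A-titled peaks (exact binomial interval 33.5 to 37.6%) and 8.24% of the 9513 with m1A (7.70 to 8.81%). They held 36.6% of the m6A-titled peaks and 8.44% of the m1A peaks. The first share was 23.8% without m1A library 1 and 21.8% without m1A library 3, the libraries with the longest lists, and the part of list length was not tested.

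The number of m1A peaks per locus averaged 1.79 in loci with both marks and 1.74 in loci with m1A alone, and the difference was not tested. Only 10 loci had a peak in all 5 lists, a count that the short list of m1A library 2 limits. Both strands occurred among the m6A-titled peaks of 6 of the 784 loci.

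The loci with both marks and the most peaks were taken by rule. They held 10 to 13 peaks and are not typical of the 784 loci, whose medians were 3 peaks and a span of 1243 bp. The first, Peaxi162Scf00601 78869 to 87805, held 7 m1A peaks, 2 in library 1 and 5 in library 3, and 6 m6A-titled peaks on the plus strand, 3 in each library. In it, an m1A peak of library 3 at 86213 to 86341 began at the same base as an m6A-titled peak of library 1 at 86213 to 86642. Another m1A peak of library 3, at 81907 to 81966, ended at the same base as an m6A-titled peak of library 2 at 81577 to 81966. The m6A-titled peak at 87408 to 87805 was listed with the same bounds in both libraries and had no m1A peak over it.

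The second, Peaxi162Scf00126 1303587 to 1310599, held 10 m1A peaks, 4, 1 and 5 in libraries 1, 2 and 3. Its m6A-titled peak, plus strand, ran from 1309234 to 1310359, 1126 bp, with the same bounds in both libraries. An m1A peak of library 1 at 1310116 to 1310359 ended at the same base. The m1A peaks of libraries 2 and 3 near it, at 1310537 to 1310568 and 1310537 to 1310599, began together beyond its 3′ end. The other 7 m1A peaks lay on its 5′ side.

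The third, Peaxi162Scf00007 879434 to 887756, held 10 m1A peaks, 2, 2 and 6 in libraries 1, 2 and 3. It had 1 m6A-titled peak, in library 1 on the plus strand at 879434 to 879653, and m1A library 1 listed a peak with the same bounds. The other 9 m1A peaks lay on the 3′ side of it. The remaining loci of the rule were Peaxi162Scf00071 466227 to 471679 and Peaxi162Scf01183 90986 to 97547, each with 8 m1A peaks and 1 m6A-titled peak in each library. In Peaxi162Scf00071, plus strand, the m6A-titled peak lay at the first base of the locus, and in Peaxi162Scf01183, minus strand, at the last. The m1A peaks outside it were thus on its 3′ side in both, as in the third locus and unlike the second.

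**Figure D3:**
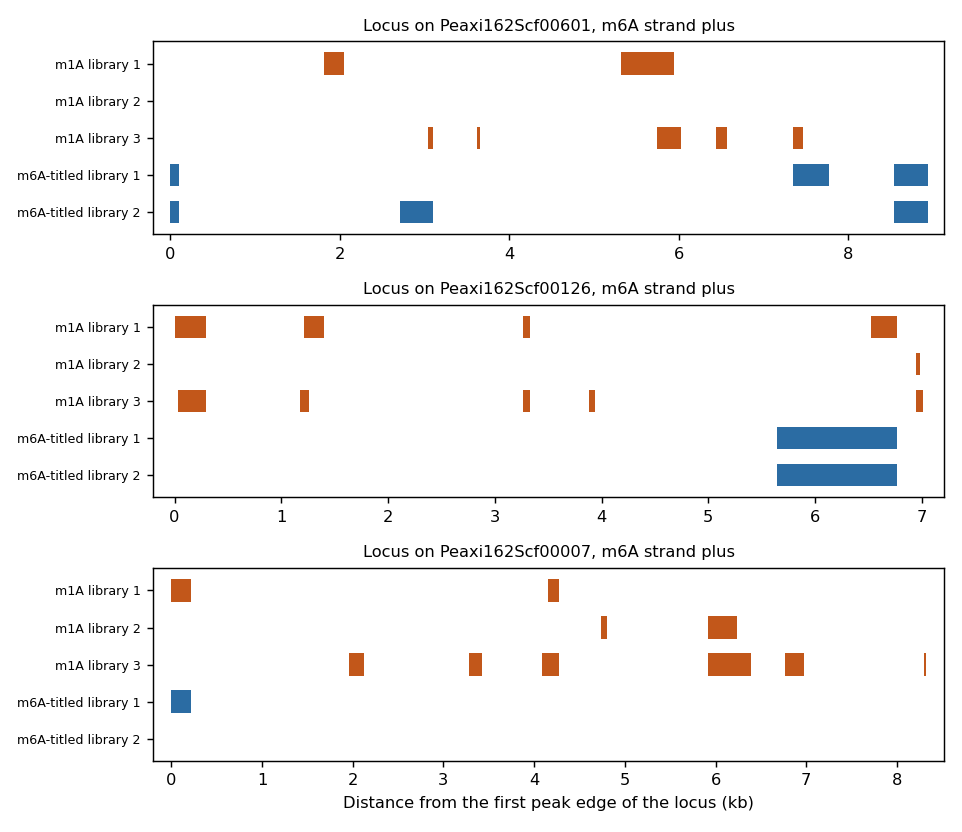
Peaks of the 5 ethylene lists in the 3 loci with both marks and the most peaks, as bars to scale against distance in kb from the first peak edge of the locus, m1A lists above m6A-titled lists. The loci hold 7 and 6, 10 and 2, and 10 and 1 m1A and m6A-titled peaks, and several bars of the 2 marks end or begin at the same base.

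The fifth comparison was of overlap, counted from 1 shared bp. Few m1A peaks overlapped an m6A-titled peak. The share was 2.68, 2.07 and 2.52% of the peaks of m1A libraries 1, 2 and 3 with m6A-titled library 1, and 2.15, 2.57 and 2.05% with m6A-titled library 2. Seen from the other mark, 11.6, 1.23 and 11.8% of the peaks of m6A-titled library 1 overlapped a peak of m1A libraries 1, 2 and 3, and 10.9, 1.79 and 11.2% of those of m6A-titled library 2 did. This second share was lowest with m1A library 2, whose list is the shortest.

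Overlap between the marks was lower than agreement within a mark. Of the peaks of the shorter list of a pair, 23.4 to 27.8% overlapped the other list in the 3 m1A pairs and 56.1% did in the m6A-titled pair, against 2.07 to 11.8% in the 6 pairs of different marks. The ranges within and between marks did not overlap. The mean was 33.8% within marks and 8.36% between them, a difference of 25.4 percentage points (two-sided exact permutation p = 0.2 over 10 splits, the smallest possible). This share can rise with the length of the other list, whose part was not tested. The list of m1A library 2 met 7526 and 8059 peaks within its mark (27.8% each). Against the 1704 and 1451 m6A-titled peaks its shares were 2.07 and 2.57%. Without m1A library 2 the difference was 28.4 points.

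Exact edges told the m6A-titled pair apart from the rest. Of 814 overlapping peak pairs of the 2 m6A-titled lists, 76.8% had both edges identical and 97.9% had at least 1 identical edge. Among overlapping m1A pairs these shares were 12.1 to 20.7% and 62.1 to 68.7%. Between the marks they were 4.76 to 24.8% and 69.2 to 80.0%. The share with at least 1 identical edge was thus higher in each of the 6 pairs of different marks than in any of the 3 m1A pairs, a difference that was not tested. With m1A library 2 this share rests on few overlapping peak pairs, 15 of 21 (71.4%) and 18 of 26 (69.2%), close to the highest m1A value.

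**Figure D4:**
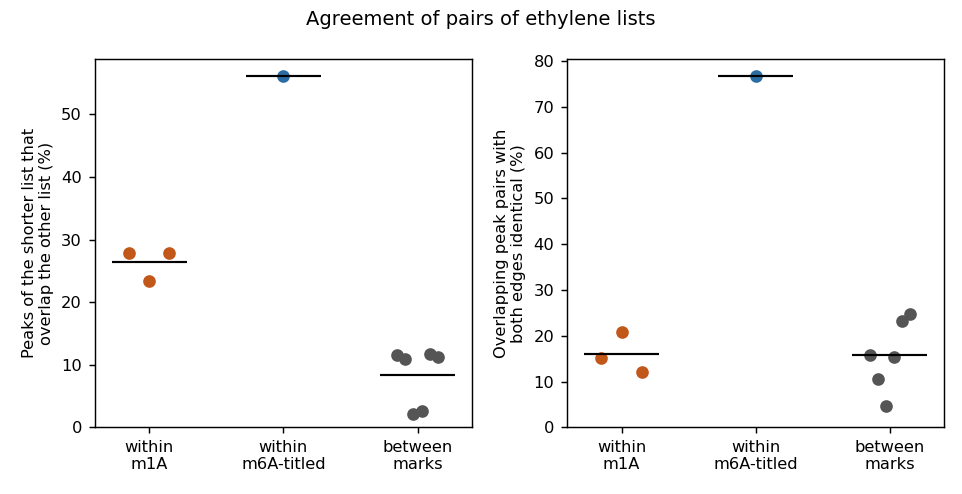
Left, peaks of the shorter list that overlap the other list, and right, overlapping peak pairs with both edges identical, both in percent, for each pair of ethylene lists (points) and their mean (line). The m6A-titled pair stands at 56.1 and 76.8%, the m1A pairs at 23.4 to 27.8% and 12.1 to 20.7%, and pairs of different marks at 2.07 to 11.8% and 4.76 to 24.8%.

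Where the marks overlapped, the m1A peak mostly lay inside the m6A-titled peak. This was so, without identical bounds, for 77.2, 85.7 and 67.5% of overlapping pairs of m1A libraries 1, 2 and 3 with m6A-titled library 1, and for 81.5, 76.9 and 69.7% with m6A-titled library 2. The m6A-titled peak lay inside the m1A peak in 0 to 4.76%. In these pairs the median widths were 137.5 to 232.5 bp for m1A and 279 to 418 bp for m6A-titled peaks. By the m6A strand column, the 5′ edge was shared in 33.3 to 47.3% of pairs and the 3′ edge in 38.9 to 59.4%. Overlapping pairs numbered only 21 and 26 for m1A library 2, against 162 to 203 for m1A libraries 1 and 3. The values of 0, 4.76, 85.7 and 33.3% all came from m1A library 2.

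Peaks that overlapped the other mark were wider than the rest of their list. In m1A libraries 1, 2 and 3 the medians were 225, 156 and 214 bp for overlapping peaks, against 153, 145 and 160 bp for the rest. In m6A-titled libraries 1 and 2 they were 368 and 363 bp, against 241.5 and 250 bp. A wide peak is more easily overlapped. Among m6A-titled regions of both libraries, overlap with any m1A region was 12.2% under 150 bp, 17.7% from 150 to 300 bp, 22.5% from 300 to 500 bp and 46.6% at 500 bp or more, with exact binomial intervals of 7.61 to 18.2% and 38.4 to 55.0% for the narrowest and widest class.

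Peaks of the libraries of a mark were next merged into regions where they shared 1 bp or more. The 14391 m1A regions included 1891 in 2 libraries and 143 in all 3, and 814 of the 2341 m6A-titled regions were in both libraries. A region in all 3 needs a peak of m1A library 2, so the 1013 peaks of that list limit this count. Of the 814, 189 (23.2%, exact binomial interval 20.4 to 26.3%) overlapped an m1A region of any library, and 34 (4.18%, 2.91 to 5.79%) an m1A region of 2 or 3 libraries. The share with any m1A region was 19.3% (17.7 to 21.0%) over all 2341 m6A-titled regions and 17.2% (15.4 to 19.2%) over those in 1 library. Of 2034 m1A regions in 2 or 3 libraries, 77 (3.79%, 2.999 to 4.71%) overlapped any m6A-titled region. Of all 14391 m1A regions, 471 (3.27%, 2.99 to 3.58%) did. Of the 143 in all 3, 4 did (2.80%, 0.767 to 7.01%), an interval that takes in the share of the rest.

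Regions with a peak in all 5 lists, which likewise need a peak of m1A library 2, numbered 2, both on the plus strand. Peaxi162Scf00338 184003 to 184496 was listed at its full 494 bp in m1A library 3 and in both m6A-titled libraries, and at 297 and 235 bp in m1A libraries 1 and 2. Its scores were 3100, 3100 and 1717 in m1A libraries 1, 2 and 3 and 3100 in both m6A-titled libraries. Peaxi162Scf00286 902747 to 903022 was likewise listed at its full 276 bp in m1A library 3 and both m6A-titled libraries, and at 156 and 99 bp in m1A libraries 1 and 2.

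A further 32 m6A-titled regions of both libraries overlapped an m1A region of 2 or 3 libraries. The 5 named had a score of 3100 in both m6A-titled libraries, where 6 tied and width decided. In Peaxi162Scf00460 49473 to 49855, plus strand, m1A libraries 1 and 3 and both m6A-titled libraries listed the same 383 bp. Peaxi162Scf00751 430855 to 431517, plus strand, was 663 bp wide in m1A library 3 and both m6A-titled libraries and 359 bp in m1A library 1. In Peaxi162Scf00950 340898 to 341767, minus strand, the m6A-titled peak of 870 bp covered 1 m1A peak of 265 bp in library 1 and a pair of 211 and 365 bp in library 3. Peaxi162Scf00025 2862719 to 2863332, minus strand, and Peaxi162Scf00027 501313 to 501702, plus strand, held m1A peaks of 531 and 274 bp and of 293 and 283 bp in m1A libraries 1 and 3. None of the 5 had a peak in m1A library 2.

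Regions of 1 mark far from the other were also counted. On scaffolds that held m1A, 386 of the 814 m6A-titled regions had no m1A peak of any ethylene library within 5 kb. By the rule these were led by Peaxi162Scf00174 6497 to 6839, minus, Peaxi162Scf00475 147314 to 147563, minus, and Peaxi162Scf00216 1375266 to 1375509, plus, with Peaxi162Scf00332 74516 to 74651, minus, and Peaxi162Scf00079 2315406 to 2315489, plus, after them. All 5 had a score of 3100 in both m6A-titled libraries, where 9 tied and width decided. The width of Peaxi162Scf00174 rests on m6A-titled library 2, which listed 343 bp, whereas library 1 listed 35 bp, from 6497 to 6531. On scaffolds that held m6A-titled peaks, 110 of the 143 m1A regions of all 3 libraries had no m6A-titled peak within 5 kb. They were led by Peaxi162Scf00038 870327 to 870717, 391 bp, and Peaxi162Scf00286 80986 to 81288, 303 bp, followed by Peaxi162Scf00345 257795 to 258771, 977 bp, Peaxi162Scf00328 523896 to 524663, 768 bp, and Peaxi162Scf00045 1739808 to 1740528, 721 bp. At the last place 25 tied, and width of the merged region decided. In Peaxi162Scf00345 no base lay in all 3 lists. Its peaks in m1A libraries 1 and 3, at 257795 to 258293 and 258421 to 258771, were joined only through that of library 2 at 258289 to 258515. Both counts lie near the shares over all peaks. Of all peaks of m6A-titled libraries 1 and 2, 30.9 and 33.8% lay 5 to 50 kb from the nearest m1A peak and 16.3 and 18.1% beyond 50 kb. Of all peaks of m1A libraries 1, 2 and 3, 25.5, 26.9 and 26.6% lay 5 to 50 kb from the nearest m6A-titled peak. A further 50.5, 51.2 and 49.4% lay beyond 50 kb.

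Distances between the marks were unequal from the 2 sides. The nearest peak of the other mark lay at a median of 70.9, 74.2 and 65.3 kb from peaks of m1A libraries 1, 2 and 3, against 4.475 and 6.125 kb from peaks of m6A-titled libraries 1 and 2, overlapping peaks counted as 0 and scaffolds without the other mark left out. About 50% of the m1A peaks, 49.4 to 51.2%, lay beyond 50 kb, against 16.3 and 18.1% of the m6A-titled peaks. The 3 m1A lists together held 16598 peaks and the 2 m6A-titled lists 3155, and the part of list length in these distances was not tested.

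Overlap was then set against the air libraries. After ethylene, the share of m6A-titled peaks that overlapped an m1A peak averaged 8.09% over the 6 pairs of lists, against 18.1% in air, a difference of -9.99 percentage points (two-sided exact permutation p = 0.3 over 120 splits, smallest possible 0.0167). The pairs of the treatments overlapped, from 1.23 to 11.8% after ethylene and from 7.97 to 24.2% in air. Counted from the m1A peaks, a measure added after the data were seen, the shares were 2.34% after ethylene and 2.20% in air (difference 0.145 points, exact permutation p = 0.467). The direction thus turned with the mark counted. The m1A lists averaged 5533 ± 3923 peaks after ethylene and 13309 ± 5757 in air (SD, n = 3 each), and the part of list length in the first difference was not tested.

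The m1A peaks of ethylene libraries were also set against m6A-titled peaks of either treatment. On average 8.09% of the m6A-titled peaks of ethylene libraries and 7.64% of those of air libraries overlapped a peak of the ethylene m1A lists (difference 0.454 points, two-sided exact permutation p = 0.333 over 6 splits, the smallest possible). With 6 splits this test can show neither a difference nor likeness.

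The last comparison used the strand column, which the m6A-titled lists alone have. The nearest m1A peak that did not overlap lay more often on the 3′ side of the m6A-titled peak than on the 5′ side in all 6 pairs of lists. Within 5 kb, the 3′ share was 60.8% (exact binomial interval 55.9 to 65.5%, 413 peaks), 54.5% (40.6 to 68.0%, 55 peaks) and 63.9% (59.4 to 68.3%, 466 peaks) with m1A libraries 1, 2 and 3 around m6A-titled library 1. Around m6A-titled library 2 it was 62.6% (57.1 to 67.9%, 321 peaks), 65.0% (48.3 to 79.4%, 40 peaks) and 66.7% (61.5 to 71.5%, 357 peaks). The intervals of the pairs with m1A library 2 took in 50%, and those of the other 4 pairs did not. The pairs share libraries and are not independent.

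Regions of both m6A-titled libraries gave the same side. Of 325 with an m1A region of any ethylene library within 5 kb that did not overlap them, the nearest lay on the 3′ side for 213 and on the 5′ side for 112, or 65.5% (60.1 to 70.7%). The share was 66.0% on the plus strand (147 regions) and 65.2% on the minus strand (178 regions). It was 70.9% (61.1 to 79.4%) for the 103 regions that also overlapped an m1A region and 63.1% (56.3 to 69.4%) for the 222 that did not, and these intervals overlap. With m1A regions of 2 or 3 libraries alone, 42 lay on the 3′ side and 21 on the 5′ side, or 66.7% (53.7 to 78.0%).

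The 3′ share was lower next to the peak and far from it than between. Taking the nearest m1A region within each distance class, it was 54.3% under 500 bp (46 regions, 39.0 to 69.1%) and 52.1% at 20 to 50 kb (411 regions, 47.1 to 57.0%), and the interval of the class next to the peak takes in the values of most other classes. In the 4 classes that together span 500 to 5000 bp it lay between 64.3 and 69.5%. Farther out it was 64.1% between 5 and 10 kb and 58.6% between 10 and 20 kb. A region can enter several classes. Over the 6 pairs together, counts of m1A peaks by midpoint were highest from 1 to 3 kb on the 3′ side, with 342 and 332 peaks per kb of distance, against 195 and 165 at the same distances on the 5′ side.

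**Figure D5:**
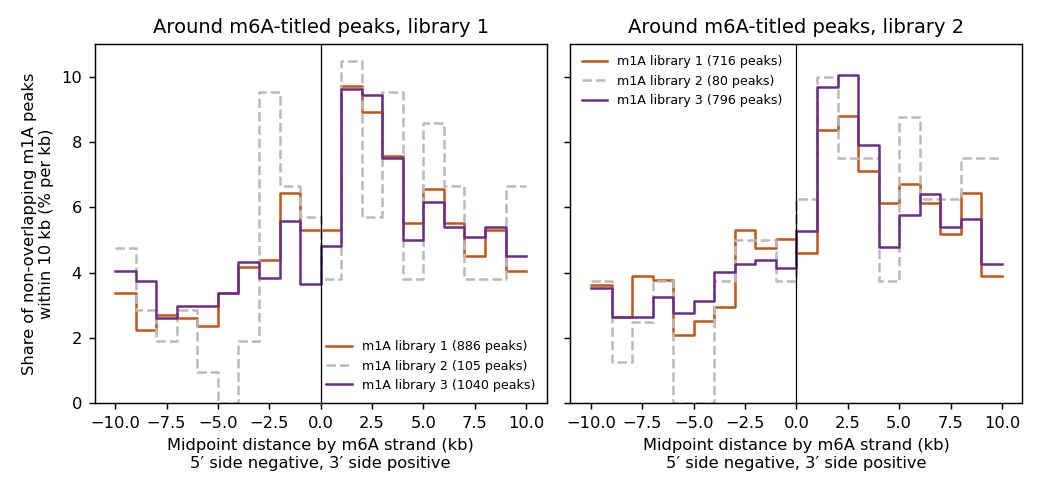
Share of the m1A peaks within 10 kb of an m6A-titled peak, overlapping peaks left out, that lie in each kb of midpoint distance, with the 5′ side negative and the 3′ side positive by the m6A strand. Lines are m1A libraries around m6A-titled library 1 (left) and 2 (right), and in both panels the lines of m1A libraries 1 and 3 are highest at 1 to 3 kb on the 3′ side.

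Neighbouring m6A-titled peaks mostly carried the same strand. All 814 overlapping pairs of the 2 m6A-titled lists had the same strand. Successive peaks of 1 list under 1 kb apart had the same strand in 34 of 35 pairs in m6A-titled library 1 and 18 of 18 in library 2. Under 5 kb apart, the window of the side counts, it was the same in 108 of 122 pairs (88.5%) and 78 of 85 (91.8%). The share was 76.9 and 65.6% at 5 to 20 kb and 48.4 and 50.8% at 20 to 100 kb. A column with both strands exchanged would give the same shares, so that the 3′ side holds only as far as the column is right. The lists name no genes, and no peak was assigned to a transcript.

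The 3′ share did not differ detectably between treatments. It averaged 62.3% over the 6 pairs after ethylene and 65.1% in air, a difference of -2.82 percentage points (two-sided exact permutation p = 0.35 over 120 splits, smallest possible 0.0167). The ethylene pairs ranged from 54.5 to 66.7% and the air pairs from 63.4 to 68.5%. Without m6A-titled ethylene library 2 the difference was -5.32 points, and without m6A-titled ethylene library 1 it was -0.317 points. With overlapping peaks included by midpoint the direction turned, to 0.440 points, and with the m1A peaks of a treatment joined into regions, a setting chosen with the values already known, the difference was -0.497 points. Within 2 kb it was -4.42 points (two-sided exact permutation p = 0.183) and within 20 kb -2.02 points (exact permutation p = 0.267). With peaks of score 100 or more it was -4.10 points (exact permutation p = 0.0667), the smallest p among the settings of this result.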

How the data were processed

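Each library has 1 deposited peak list, which gives the position, name and score of every peak and, in the m6A-titled lists, its strand. The deposited score was given by the authors for each list alone, its scale is not given in the sources used here, and it was used only to rank, class or filter peaks. Peak numbers skip, so each list is a subset whose selection is not stated there. Per the submitters' processing notes, MACS 1.4.2, STAR 2.5.1b, cutadapt 1.9.3 and CASAVA 1.4 were named without roles, beside a human and a mouse build, whereas the scaffold names carry the prefix Peaxi162 of a Petunia axillaris assembly. Coordinates are given on those scaffolds, counted from 1. Input libraries were not analysed here, and no genome or annotation was used.

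Libraries were grouped by title. Width, neighbours, pair densities, overlap and side were computed in Python 3.11.15 with numpy 2.4.6, pandas 2.3.3 and scipy 1.17.1, and tested on simulated lists with known answers. Exact permutation tests ran over libraries, two-sided, as 2 times the smaller tail. Exact binomial intervals are Clopper-Pearson, 95%. Named regions were those in all 5 lists, up to 5 each of 3 further kinds by mean score percentile, then width and position, and the 5 loci of both marks with the most peaks. The members, lists and rules were chosen with earlier results of these data known.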

Additional observations from a re-analysis of the deposited data

How the results depend on the processing

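Over 78 alternatives, 69 kept the direction of their result and its side of the threshold or stayed within its interval. No p of a main result or alternative was below 0.05, and in tests of the 5 ethylene libraries alone none can be. For tested results the count therefore shows direction and not size. The log2 pair density difference of 0.698 without m1A library 2, against 1.39, counts as kept. So does the side difference of -0.317 points without m6A-titled ethylene library 1, against -2.82. The share of m6A-titled loci with m1A was 28.1% with gaps of 1 kb and 47.7% with gaps of 5 kb, and 21.8 to 37.9% without 1 library. The share of m6A-titled scaffolds with m1A was 88.6 to 94.9% without 1 library. The treatment difference turned to 0.145 points when the m1A peaks were counted, and that in the 3′ share to 0.440 points with overlapping peaks included by midpoint, and the cause was not tested. The width difference stayed between -151 bp (mean widths) and -90.0 bp (peaks of 50 bp or more, added after the data were seen). Replicate numbers are shared between groups, but no label says that they pair libraries, and same-numbered libraries of a mark deviated together little over scaffolds (r from -0.0642 to 0.0387). With numbers 1 and 2 as a block, the width difference was -115 bp, the neighbour difference 17.7 points and the log2 pair density difference 1.79 (exact sign-flip p = 0.5 each, the smallest possible), and with the block the overlap difference between treatments had p = 0.5 and the side difference p = 0.25 (exact permutation, 32 splits). Depth is unknown, and list length cannot be corrected for it.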

Other observations

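The lists keep different parts of the peaks that were numbered. The m1A lists of ethylene libraries 1, 2 and 3 held 69.7, 65.1 and 71.1% of as many peaks as their highest peak number, against 45.4 and 40.9% in m6A-titled libraries 1 and 2. In the m6A-titled libraries 1 and 2, 46.8 and 47.6% of the peaks were on the plus strand. Peaks that overlapped an m1A peak had higher scores there, with medians of 109 and 140, against 49.4 and 75.2 for the rest of each list. In the m1A lists the share of peaks at a score of 3100 was 52.5, 56.2 and 63.0% among those overlapping an m6A-titled peak, against 41.4, 71.0 and 54.8% among the rest, so that m1A library 2 went the other way. Of the regions with a peak in all 5 ethylene lists, Peaxi162Scf00338 184003 to 184496 also had a peak in all 3 m1A and both m6A-titled air lists, and Peaxi162Scf00286 902747 to 903022 in 2 of the 3 m1A and both m6A-titled air lists.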
